A study of Homo sapiens with 12 samples.

Results

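The genes described here are 60 genes of mitosis, the kinetochore and the spindle: 18 kinetochore and checkpoint genes, 9 mitotic kinesins, 11 mitotic kinases and cyclins (with their activating phosphatases CDC25B and CDC25C), and 22 other genes of spindle assembly, cytokinesis, chromosome condensation and anaphase. They were taken by symbol from a fixed list, not by their values, but the list was chosen with earlier results of these data known. Each gene was represented by the probe set that is annotated to that symbol alone and has the highest mean over the 12 arrays, and was kept if at least 3 arrays reached a log2 value of 4. All 60 listed genes were kept, among 13130 genes that passed the same filter and were tested and 19775 genes with such a probe set. Every one of the 60 was at or above that floor on all 12 arrays, so no member passed through 1 group alone. The lowest single value was 4.60, for PLK1 on an HFM array at 24 hours.

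RNA was measured on Affymetrix human expression arrays in Sk-hep1 cells, an established human line that the labels call an endothelial adenocarcinoma line from liver ascites. The 4 groups of 3 arrays were cells in high-fat medium (HFM) for 24 hours, growth medium (GM) for 24 hours, HFM for 12 hours and GM for 12 hours. GM was based on DMEM and HFM on DMEM/F12, so the basal medium differed along with the fat, whose kind and amount the labels leave unstated. All cells had been grown beforehand in DMEM with fetal bovine serum, penicillin, streptomycin and L-glutamine, and none carried an edited gene. Nothing in the labels tells whether the 3 arrays of a group came from separate cultures, and the p-values therefore cover the spread among these arrays alone, possibly a technical one.

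In mitosis the duplicated chromosomes are condensed, attached to spindle microtubules through a protein assembly at the centromere called the kinetochore, and pulled apart. The spindle checkpoint delays anaphase until every kinetochore is attached, after which the anaphase-promoting complex marks securin and cyclin B for destruction. Most of these genes are transcribed in G2 and mitosis and are kept low in resting cells, through the DREAM complex, which binds a short promoter element called the CHR, and through FOXM1 and B-MYB. Their transcripts are therefore common markers of dividing cells in tissues and cultures, liver cell lines included. In a bulk culture a lower value can come from fewer cells in G2 and mitosis or from less RNA in each such cell, and these cannot be told apart here.

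Before the results, 3 features of the arrays are given. Of the 15 endothelial markers, 8 passed the floor, and CDH5, VWF, KDR, TEK, TIE1, CLDN5 and ERG did not. The hepatocyte list had 5 of 11 measured markers above the floor, without ALB, APOA1, APOB, FGB, AHSG and TAT, and the leukocyte list had 3 of 7, without PTPRC. The summed level of the endothelial list, on a linear scale, was 448.4 to 475.2 on HFM and 493.3 to 539.0 on GM arrays at 24 hours, and 488.7 to 577.0 on HFM and 715.0 to 721.9 on GM arrays at 12 hours, and that of the leukocyte list was 130.0 to 136.9 on HFM and 142.2 to 150.2 on GM arrays at 24 hours, and 149.2 to 163.7 on HFM and 203.5 to 218.2 on GM arrays at 12 hours. Of 11 measured epithelial markers 7 passed the floor, without EPCAM, CDH1, ESRP1 and CLDN4, and their summed level was 16810 to 17730 on HFM and 18660 to 19700 on GM arrays at 24 hours, and 20190 to 22790 on HFM and 24310 to 24930 on GM arrays at 12 hours. The summed level of the hepatocyte list overlapped between the media at both times. The part of these markers in the results was not tested. The first HFM array at 12 hours stood apart: its median absolute log2 difference from the other arrays of its group was 0.212 to 0.220, against 0.0505 to 0.096 for every other pair within a group. Its hybridisation controls averaged 9.81, near the 9.84 to 9.88 of the 3 GM arrays at 12 hours, while the other 8 arrays of the series lay at 9.41 to 9.65. The 12-hour counts are therefore given with and without that array, and so are the values of the single genes whose 12-hour call it changed.

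The promoter letters shared by many of these genes are shown first, because the letters do not come from the array values. The members were chosen by function, with earlier results of these data known. RefSeq promoter windows (GRCh38.p14, 250 bases before to 50 after a gene start) were found by symbol for 52 of the 60 genes, in 67 windows, since 10 genes have several. The genes KNL1, BUB3, TTK, AURKA, TPX2, BIRC5, UBE2C and FOXM1 were not matched. The windows were searched on both strands for the CHR (TTTGAA), for the CHR-like TTTAAA and for the CCAAT box (CCAAT), which is bound by NF-Y. The stretch from 120 bases before to 30 after the start is printed for SPC25, KIF11 and CDC25C, which had the largest 24-hour differences of the kinetochore, kinesin and kinase or cyclin classes, for CENPE and PLK1, which had the highest and lowest 12-hour differences, for HMMR, which was higher at 12 and lower at 24 hours, and for CDK1, the central mitotic kinase. Capitals mark every match to these 3 motifs on either strand; a CHR on the other strand reads TTCAAA, whereas a CCAAT box there reads ATTGG.
SPC25: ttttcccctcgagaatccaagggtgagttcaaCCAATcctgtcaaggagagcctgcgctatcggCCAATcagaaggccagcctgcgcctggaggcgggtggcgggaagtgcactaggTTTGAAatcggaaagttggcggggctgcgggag
KIF11: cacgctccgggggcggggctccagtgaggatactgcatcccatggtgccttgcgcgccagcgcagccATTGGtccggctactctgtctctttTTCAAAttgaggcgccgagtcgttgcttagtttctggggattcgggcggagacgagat
CDC25C: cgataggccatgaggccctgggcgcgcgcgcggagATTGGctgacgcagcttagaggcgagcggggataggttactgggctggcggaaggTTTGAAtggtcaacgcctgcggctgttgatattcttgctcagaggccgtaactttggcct
CENPE: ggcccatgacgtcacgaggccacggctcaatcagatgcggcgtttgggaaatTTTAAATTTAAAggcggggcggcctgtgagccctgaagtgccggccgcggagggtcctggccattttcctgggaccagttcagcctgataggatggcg
PLK1: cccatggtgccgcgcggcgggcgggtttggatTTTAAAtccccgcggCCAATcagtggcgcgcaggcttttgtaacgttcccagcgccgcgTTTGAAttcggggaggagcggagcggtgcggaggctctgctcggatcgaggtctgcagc
HMMR: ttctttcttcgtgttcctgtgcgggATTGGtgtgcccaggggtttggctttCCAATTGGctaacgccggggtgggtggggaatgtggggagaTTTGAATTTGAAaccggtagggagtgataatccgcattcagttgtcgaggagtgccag
CDK1: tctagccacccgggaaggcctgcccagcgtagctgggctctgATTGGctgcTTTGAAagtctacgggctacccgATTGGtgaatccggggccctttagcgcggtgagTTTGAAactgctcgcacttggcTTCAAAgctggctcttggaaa
These stretches lie at chr2:168890401-168890550 (minus strand) for SPC25, chr10:92593010-92593159 (plus strand) for KIF11, chr5:138331775-138331924 (minus strand) for CDC25C, chr4:103198314-103198463 (minus strand) for CENPE, chr16:23678769-23678918 (plus strand) for PLK1, chr5:163460512-163460661 (plus strand) for HMMR and chr10:60778358-60778507 (plus strand) for CDK1, each written 5′ to 3′ in the direction of its gene.

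Positions are counted from 0 at the gene start, with bases before it negative. A CHR match began at -3 in SPC25, -28 in KIF11, -30 in CDC25C and -29 in PLK1. HMMR had 2 adjoining CHR matches, at -28 and -22, and CDK1 had 3, at -69, -13 and 9. The stretch of CENPE had none, and held 2 adjoining TTTAAA matches at -68 and -62 instead. In 6 of these 7 stretches at least 1 CCAAT match lay upstream of the CHR. For a gene with several windows, the printed one was picked for a CHR match inside the stretch, the nearest to the start. The CHR positions are therefore partly set by this choice. Another CDK1 window held a CHR at -161 with a CCAAT match after it, at -150, and another CDC25C window held a CHR at 43.

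A CHR match was present in 58.2% of the 67 windows of mitosis genes, against 10.6% of the 15375 windows of all genes tested and 15.2% of the 35116 windows in the promoter table. Within 100 bases before to 50 after the start the shares were 52.2% for mitosis genes and 4.40% for all genes tested. TTTAAA was in 28.4% of mitosis windows and 8.42% of windows of all genes tested, and CCAAT in 70.1% and 34.6%. A CHR and a CCAAT match stood in the same window in 43.3% of mitosis windows, against 4.23% over all genes tested. In no mitosis window did a CHR match share letters with a TTTAAA or CCAAT match. By class, 7 of 9 kinesin windows held a CHR, 8 of 16 kinetochore windows, 7 of 20 kinase or cyclin windows and 17 of 22 windows of the other genes. Counted by gene, a CHR was in at least 1 window of 7 of 9 kinesins, 8 of 15 kinetochore genes, 5 of 10 kinases and cyclins and 16 of 18 others. These are letter matches and not measured binding sites, and a window without a match says only that the letters are not in it.

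**Figure D1:**
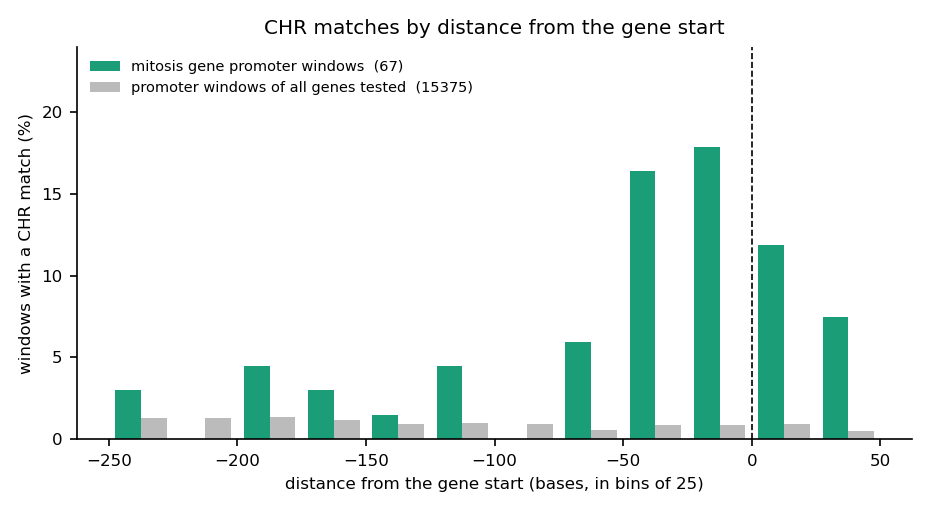
Share of promoter windows (y axis, percent) with a TTTGAA match in each 25-base bin of distance from the gene start (x axis, bases; the dashed line is the start), for the 67 windows of mitosis genes (green) and the 15375 windows of all genes tested (grey). The mitosis windows peak in the bins from -50 to -25 (16.4%) and from -25 to 0 (17.9%), where the windows of all genes tested are at 0.891% and 0.833%.

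At 24 hours the mitosis genes were lower in HFM than in GM almost throughout. With a limma adjusted p under 0.05 over all genes tested, 52 of the 60 were lower, none was higher and 8 were not called, while 37.5% of all genes tested were lower and 20.6% higher. The median change of the 60 was -0.65 on the log2 scale, on which a step of 1 is a 2-fold change, and that of all genes tested was -0.08. At least 2-fold lower were 11 members and 2-fold higher none, against 5.2% and 2.28% of all genes tested. The 3 HFM arrays lay below all 3 GM arrays in 53 members and above them in none, where 43.0% and 25.7% of all genes tested were separated in these directions. The 8 members not called were CENPK, NUF2, BUB3, KIF18A, NEK2, CDK1, ECT2 and ANLN.

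**Figure D2:**
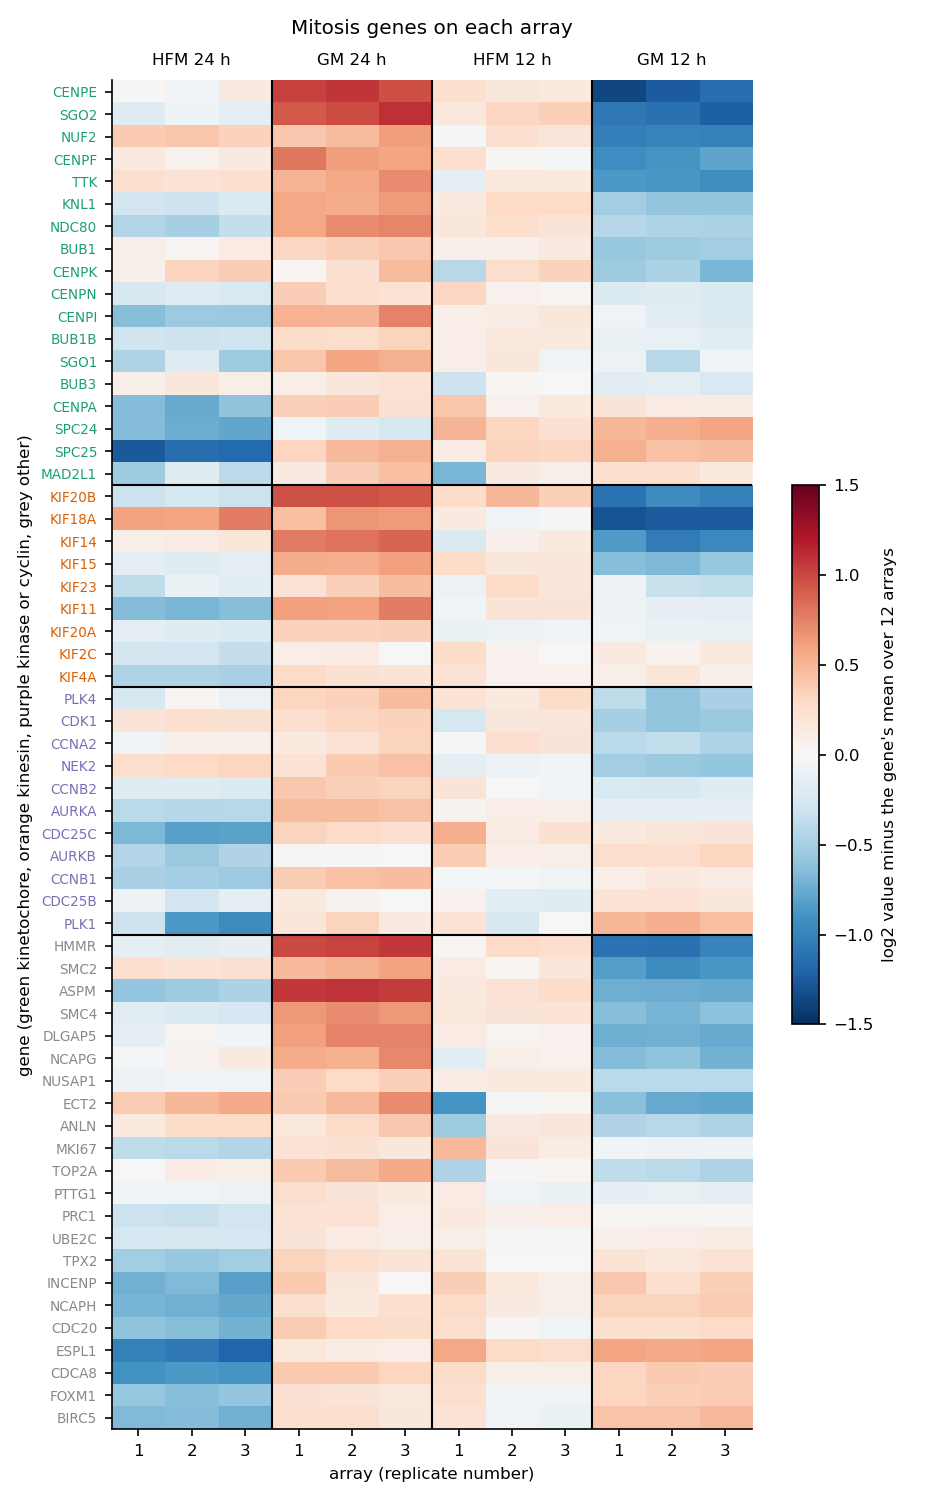
Log2 value minus the gene's own mean over 12 arrays (colour, blue lower and red higher) for the 60 mitosis genes (rows, grouped by class and ordered within a class by the 12-hour change) on each array (columns: HFM 24 h, GM 24 h, HFM 12 h, GM 12 h, 3 replicates each). HFM 24 h or GM 12 h holds the lowest mean of every row (29 and 31 genes, where 44.4% and 26.9% of all genes tested have these groups lowest), and GM 24 h the highest of 45 rows (16.2% of all genes tested).

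Among the kinetochore genes, 15 of 18 were lower at 24 hours, with a median of -0.64, and the NDC80 complex, the outer kinetochore assembly that grips microtubule ends, spanned almost the whole range. SPC25, a subunit of that complex, had log2 values of 7.65, 7.77 and 7.74 on the HFM arrays, against 9.23, 9.38 and 9.43 on the GM arrays. The HFM values all lay more than 1 log2 unit below the GM values, a fall of 3.09-fold (-1.63 ± 0.07, SE, n = 3 per group, limma adjusted p = 4.5e-09). It was the largest 24-hour difference of the 60. NDC80, the subunit that names the complex, had 8.73, 8.67 and 8.82 on the HFM arrays, against 9.75, 9.88 and 9.90 on the GM arrays (-1.10 ± 0.06, limma adjusted p = 1.6e-08), again with no overlap. The other subunits were SPC24, at -0.56 ± 0.08, and NUF2, at -0.12 ± 0.08 and not called (limma adjusted p = 0.198).

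CENPI, an inner kinetochore subunit, had 6.62, 6.71 and 6.69 on the HFM arrays, against 7.77, 7.76 and 8.0 on the GM arrays (-1.17 ± 0.07, limma adjusted p = 4.9e-08). CENPA, the histone H3 variant that marks centromeres, had 7.94, 7.83 and 7.99 on the HFM arrays, against 8.94, 8.96 and 8.81 on the GM arrays (-0.98 ± 0.09, limma adjusted p = 1.1e-06). In both the groups were separated by more than the spread within either. CENPN, which binds CENPA nucleosomes, fell by 0.50, and CENPK, of the same inner assembly, was at 0.02 ± 0.18 with overlapping arrays.

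The corona motor CENPE, a kinesin that carries chromosomes to the spindle equator, had 7.35, 7.29 and 7.47 on the HFM arrays, against 8.35, 8.40 and 8.30 on the GM arrays (-0.98 ± 0.07, limma adjusted p = 1.5e-07). The shugoshin SGO2, which protects centromeric cohesin, had 8.16, 8.28 and 8.22 on the HFM arrays, against 9.28, 9.34 and 9.45 on the GM arrays (-1.14 ± 0.07, limma adjusted p = 6e-08). Neither gene showed any overlap between the media. SGO1, the paralogue of SGO2, fell by 0.91, KNL1, the scaffold for checkpoint proteins, by 0.86 and CENPF, a large corona protein, by 0.55.

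Of the 5 checkpoint genes, 4 were lower in HFM at 24 hours: MAD2L1 at -0.69 ± 0.18, BUB1B at -0.59 ± 0.04, TTK at -0.37 ± 0.08 and BUB1 at -0.27 ± 0.05. After centring each array on its median only BUB1B (-0.41) of these 4 was still called, with MAD2L1 at -0.51, TTK at -0.19 and BUB1 at -0.09. BUB3, a checkpoint protein that is also present outside mitosis, was not called: it had 11.50, 11.60 and 11.52 on the HFM arrays, against 11.53, 11.60 and 11.65 on the GM arrays (-0.05 ± 0.08, limma adjusted p = 0.626), and the arrays overlapped.

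Of the 9 mitotic kinesins 8 were lower at 24 hours, with a median of -0.69. KIF11, the motor that pushes spindle poles apart, had 8.29, 8.25 and 8.30 on the HFM arrays, against 9.55, 9.54 and 9.71 on the GM arrays (-1.32 ± 0.07, limma adjusted p = 2.7e-08). KIF20B, which acts at the midbody in cytokinesis, had 7.60, 7.65 and 7.60 on the HFM arrays, against 8.88, 8.87 and 8.85 on the GM arrays (-1.25 ± 0.06, limma adjusted p = 1.1e-08). For both motors the highest HFM array lay more than 1 log2 unit below the lowest GM array. KIF15, KIF4A and KIF14 fell by 0.73, 0.71 and 0.69, and KIF23, KIF20A and KIF2C by 0.56, 0.53 and 0.38. KIF18A, which dampens chromosome oscillations at the spindle equator, was the exception at 0.07 ± 0.07 and was not called.

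Of the kinases and cyclins 9 of 11 were lower at 24 hours, with a median of -0.50, the smallest of the 4 classes. CDC25C, a phosphatase that activates CDK1, had 6.87, 6.72 and 6.74 on the HFM arrays, against 7.88, 7.83 and 7.79 on the GM arrays (-1.05 ± 0.09, limma adjusted p = 1.2e-06). CCNB1, the cyclin B1 subunit of the mitotic CDK1 kinase, had 10.90, 10.88 and 10.85 on the HFM arrays, against 11.78, 11.83 and 11.86 on the GM arrays (-0.94 ± 0.05, limma adjusted p = 7.9e-09). CDK1 itself had 11.38, 11.43 and 11.41 on the HFM arrays, against 11.45, 11.50 and 11.53 on the GM arrays. Each HFM array of CDK1 was below each GM array, but by so little that it was not called (-0.08 ± 0.10, limma adjusted p = 0.499).

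PLK1, the kinase that drives mitotic entry and exit, had 5.23, 4.68 and 4.60 on the HFM arrays, against 5.72, 5.87 and 5.67 on the GM arrays (-0.92 ± 0.15, limma adjusted p = 0.0002), with the widest spread among HFM arrays of the genes given in full here. AURKB, the kinase of the chromosomal passenger complex, had 9.25, 9.12 and 9.23 on the HFM arrays, against 9.70, 9.69 and 9.69 on the GM arrays (-0.50 ± 0.07, limma adjusted p = 0.0001). Both were separated between the media. AURKA, the centrosomal Aurora kinase, fell by 0.88, PLK4, the kinase of centriole duplication, by 0.48, and CCNB2, CDC25B and CCNA2 by 0.56, 0.23 and 0.20.

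In the chromosomal passenger complex all 3 remaining members were lower. CDCA8, borealin, had 8.04, 8.09 and 8.06 on the HFM arrays, against 9.34, 9.34 and 9.26 on the GM arrays (-1.25 ± 0.06, limma adjusted p = 5.4e-09). BIRC5, survivin, had 9.44, 9.44 and 9.37 on the HFM arrays, against 10.34, 10.34 and 10.27 on the GM arrays (-0.90 ± 0.07, limma adjusted p = 6e-07). In both cases the HFM arrays were grouped tightly below the GM arrays. INCENP, the scaffold of the complex, fell by 0.92.

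The 22 other genes, these passenger subunits among them, had the lowest class median, -0.77, with 20 lower. ASPM, a spindle-pole protein, had 9.18, 9.22 and 9.28 on the HFM arrays, against 10.81, 10.84 and 10.81 on the GM arrays, a fall of 3.02-fold (-1.59 ± 0.05, limma adjusted p = 3e-10). ESPL1, separase, which cuts cohesin at anaphase, had 8.46, 8.41 and 8.29 on the HFM arrays, against 9.64, 9.59 and 9.58 on the GM arrays (-1.22 ± 0.08, limma adjusted p = 9.1e-08). Both genes had narrow groups more than 1 log2 unit apart, but of the other 2 ASPM probe sets the brighter was at -0.20 and not called (limma adjusted p = 0.078) and the dimmer at -1.89 (limma adjusted p = 9.6e-06). HMMR, a spindle-assembly protein, had 9.92, 9.90 and 9.93 on the HFM arrays, against 11.04, 11.06 and 11.12 on the GM arrays (-1.15 ± 0.06, limma adjusted p = 3e-08).

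FOXM1, the transcription factor of G2 genes, had 8.85, 8.77 and 8.83 on the HFM arrays, against 9.65, 9.61 and 9.57 on the GM arrays (-0.79 ± 0.07, limma adjusted p = 1.8e-06). MKI67, the Ki-67 protein that coats mitotic chromosomes, had 8.39, 8.38 and 8.34 on the HFM arrays, against 9.0, 9.01 and 8.95 on the GM arrays (-0.62 ± 0.08, limma adjusted p = 3.3e-05). TOP2A, the topoisomerase that untangles sister DNA, had 11.39, 11.50 and 11.48 on the HFM arrays, against 11.78, 11.86 and 11.95 on the GM arrays (-0.41 ± 0.11, limma adjusted p = 0.0063). All 3 were separated between the media, TOP2A by the least, and after centring the arrays TOP2A was no longer called (-0.23). Of the condensin subunits NCAPH, SMC4, NCAPG and SMC2 fell by 0.94, 0.88, 0.55 and 0.31, and CDC20, the activator of the anaphase-promoting complex, fell by 0.97. The cytokinesis genes ANLN (anillin, at -0.05 ± 0.15) and ECT2 (at -0.05 ± 0.19) were not called.

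Centring each array on its median moved the median of all genes by 0.18 at 24 hours, so the direction of a small change depends on the scaling. After centring, 44 of the 60 mitosis genes were lower and 1, KIF18A (0.25), was higher, while over all genes tested 4852 were higher and 3434 lower, against 2700 and 4923 before it. The members that lost the call after centring were MAD2L1, BUB1, TTK, CCNA2, CDC25B, SMC2, PTTG1 and TOP2A. Repeating quantile normalisation gave 50 lower and none higher among the 60, with 3909 higher and 4056 lower over all genes. The 3′ minus 5′ difference of the ACTB control probe sets, a measure of RNA integrity or labelling length, was 1.58 ± 0.06 on HFM and 1.07 ± 0.05 on GM arrays at 24 hours (SD, n = 3 each, exact permutation test, two-sided p = 0.1, the smallest that 3 against 3 arrays allow). That of GAPDH was 0.271 ± 0.027 on HFM and 0.159 ± 0.021 on GM arrays (exact p = 0.1). The part of this difference in the 24-hour results was not tested.

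At 12 hours the same genes did not move as a block. HFM was higher than GM for 34 of the 60 and lower for 11, with 15 not called, while 28.9% of all genes tested were higher and 33.0% lower (limma adjusted p under 0.05). The median change was 0.28, against -0.07 over all genes tested. At least 2-fold higher were 6 members, against 1.94% of all genes tested, and none was 2-fold lower, against 0.236%. All HFM arrays lay above all GM arrays in 34 members and below them in 9, against 30.4% and 33.2% of all genes tested. Without the first HFM array at 12 hours, 36 members were higher and 14 lower, with 30.1% and 38.2% of all genes tested. The added calls were BUB3 (0.20) and ECT2 (0.73), higher, and AURKB (-0.19), TPX2 (-0.18) and UBE2C (-0.10), lower. With a term for the class of the hybridisation controls, an alternative chosen after seeing the data, 33 members were higher and 4 lower (SPC25, MAD2L1, CCNB1 and BIRC5). In that fit the 12-hour contrast rests on the first HFM array, which alone shares its class with the GM arrays.

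The 6 members that were at least 2-fold higher at 12 hours were CENPE, SGO2, KIF20B, KIF18A, HMMR and NUF2. CENPE had 7.58, 7.50 and 7.48 on the HFM arrays, against 5.97, 6.08 and 6.18 on the GM arrays, a rise of 2.71-fold (1.44 ± 0.07, limma adjusted p = 3.8e-08). SGO2 had 8.51, 8.67 and 8.71 on the HFM arrays, against 7.28, 7.24 and 7.13 on the GM arrays (1.41 ± 0.07, limma adjusted p = 4.7e-08). KIF20B had 8.19, 8.41 and 8.28 on the HFM arrays, against 6.81, 6.97 and 6.90 on the GM arrays (1.40 ± 0.06, limma adjusted p = 3.1e-08). Every HFM array exceeded every GM array of these 3 genes by more than 1 log2 unit, the first HFM array included.

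HMMR had 10.10, 10.34 and 10.30 on the HFM arrays, against 8.94, 8.93 and 9.05 on the GM arrays (1.27 ± 0.06, limma adjusted p = 5.9e-08). KIF18A and NUF2 rose by 1.28 and 1.14. Both of these 2 were among the members not called at 24 hours.

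Kinetochore genes as a class had 12 higher and 2 lower at 12 hours, with a median of 0.48, and 13 higher and 2 lower without the first HFM array. The 12 and 2 were 66.7% and 11.1% of the class, against 28.9% higher and 33.0% lower over all genes tested. NDC80 had 9.34, 9.44 and 9.37 on the HFM arrays, against 8.74, 8.71 and 8.69 on the GM arrays (0.67 ± 0.06, limma adjusted p = 2e-06). SPC25, of the same complex, had 9.02, 9.24 and 9.21 on the HFM arrays, against 9.43, 9.34 and 9.36 on the GM arrays (-0.22 ± 0.07, limma adjusted p = 0.019). Of the other subunits NUF2 was higher in HFM, while SPC24 was barely called lower with overlapping arrays (-0.19 ± 0.08, limma adjusted p = 0.048) and was at -0.03 with the hybridisation-class term (limma adjusted p = 0.77).

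CENPI had 7.35, 7.37 and 7.42 on the HFM arrays, against 7.20, 7.09 and 7.04 on the GM arrays (0.27 ± 0.07, limma adjusted p = 0.0053). CENPA had 9.01, 8.66 and 8.73 on the HFM arrays, against 8.79, 8.71 and 8.70 on the GM arrays and was not called (0.07 ± 0.09, limma adjusted p = 0.520). BUB3 had 11.12, 11.46 and 11.44 on the HFM arrays, against 11.26, 11.29 and 11.20 on the GM arrays (0.09 ± 0.08, limma adjusted p = 0.381). In CENPA the first HFM array was above all GM arrays and in BUB3 below them.

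Of the kinesins 6 of 9 were higher and none lower, with a median of 0.38, and these counts did not move without the first HFM array. Over all genes tested 28.9% were higher and 33.0% lower. KIF11 had 8.88, 9.14 and 9.13 on the HFM arrays, against 8.86, 8.82 and 8.80 on the GM arrays (0.22 ± 0.07, limma adjusted p = 0.021), a small difference with the first HFM array close to the GM arrays. KIF14, KIF15 and KIF23 rose by 0.96, 0.84 and 0.38, and KIF2C (0.00), KIF4A (0.00) and KIF20A (0.01) were not called.

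Kinases and cyclins had 6 higher and 3 lower, with a median of 0.21, and 6 higher and 4 lower without the first HFM array. These were 54.5% and 27.3%, against 28.9% and 33.0% of all genes tested. Without that array they were 54.5% and 36.4%, against 30.1% and 38.2%, so the lower calls were near the share over all genes. CDK1 had 10.93, 11.36 and 11.37 on the HFM arrays, against 10.69, 10.59 and 10.63 on the GM arrays (0.58 ± 0.10, limma adjusted p = 0.00034), and its change was 0.73 without the first HFM array. CCNB1, its cyclin partner, had 11.38, 11.36 and 11.33 on the HFM arrays, against 11.49, 11.55 and 11.50 on the GM arrays (-0.16 ± 0.05, limma adjusted p = 0.0099). Neither gene showed any overlap, but the fall of CCNB1 lost its call with the mean of all probe sets (-0.11). It also did so without probe sets whose names end in x_at or s_at (-0.065) and with only the compared groups.

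PLK1 had 5.74, 5.30 and 5.53 on the HFM arrays, against 6.03, 6.08 and 5.99 on the GM arrays (-0.51 ± 0.15, limma adjusted p = 0.011), the lowest 12-hour change of the 60. CDC25C had 8.09, 7.66 and 7.77 on the HFM arrays, against 7.69, 7.72 and 7.74 on the GM arrays (0.13 ± 0.09, limma adjusted p = 0.247). AURKB had 10.06, 9.78 and 9.76 on the HFM arrays, against 9.95, 9.93 and 10.0 on the GM arrays (-0.09 ± 0.07, limma adjusted p = 0.301). For CDC25C and AURKB the first HFM array lay above all GM arrays and the arrays of the media overlapped. PLK4, CCNA2, NEK2, CCNB2 and AURKA rose by 0.70, 0.55, 0.46, 0.26 and 0.21.

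The remaining genes had 10 higher and 6 lower, with a median of 0.19, and 11 higher and 8 lower without the first HFM array. ASPM had 9.91, 9.97 and 10.03 on the HFM arrays, against 9.03, 9.01 and 9.0 on the GM arrays (0.96 ± 0.05, limma adjusted p = 5.9e-08), and the HFM arrays were all above 9.9. MKI67 had 9.27, 8.98 and 8.89 on the HFM arrays, against 8.73, 8.70 and 8.70 on the GM arrays (0.34 ± 0.08, limma adjusted p = 0.0034). TOP2A had 10.93, 11.40 and 11.41 on the HFM arrays, against 11.01, 10.98 and 10.92 on the GM arrays (0.28 ± 0.11, limma adjusted p = 0.041), with the first HFM array inside the GM range, and its change was 0.44 without that array.

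BIRC5 had 10.31, 10.04 and 10.01 on the HFM arrays, against 10.52, 10.52 and 10.59 on the GM arrays (-0.43 ± 0.07, limma adjusted p = 0.00036). FOXM1 had 9.65, 9.37 and 9.36 on the HFM arrays, against 9.74, 9.77 and 9.80 on the GM arrays (-0.31 ± 0.07, limma adjusted p = 0.0032). CDCA8 had 9.22, 9.04 and 9.04 on the HFM arrays, against 9.27, 9.34 and 9.32 on the GM arrays (-0.21 ± 0.06, limma adjusted p = 0.0079). In all 3 the HFM arrays were below the GM arrays, and the first HFM array was the nearest to them.

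ESPL1 had 10.06, 9.78 and 9.74 on the HFM arrays, against 10.07, 10.04 and 10.07 on the GM arrays (-0.20 ± 0.08, limma adjusted p = 0.044). Its first HFM array overlapped the GM arrays, and without that array the change was -0.30. With the hybridisation-class term the falls of FOXM1, CDCA8, ESPL1 and PLK1 at 12 hours were no longer called. The small 12-hour changes of ESPL1, TOP2A and KIF11 also lost their calls in several fits without 1 array, as did that of SPC25 without the first GM array (-0.20). All of these kept their direction without an array.

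Set beside each other, the times gave 28 mitosis genes lower in HFM at 24 hours and higher in HFM at 12 hours, 46.7% of the 60, against 9.19% of all genes tested. The count was 28 without the first HFM array at 12 hours and 29 with the hybridisation-class term, with 10.8% and 12.6% of all genes tested. They included 10 of the 18 kinetochore genes, 5 of the 9 kinesins, 4 of the 11 kinases and cyclins and 9 of the 22 others. A further 11 genes were lower at both times, 18.3% against 16.2% of all genes tested: SPC24, SPC25, PLK1, CCNB1, CDC25B, BIRC5, CDCA8, CDC20, ESPL1, NCAPH and FOXM1. This count was 14 without the first HFM array at 12 hours and 4 with the hybridisation-class term. No member was higher at 24 hours, so no member had the opposite order. The remaining members, by their chosen probe sets, were 13 genes lower only by the call at 24 hours and 2 called at neither time (BUB3 and ECT2). These were 21.7% and 3.33% of the 60, against 12.1% and 19.5% of all genes tested. The last 6 were called higher only at 12 hours (CENPK, NUF2, KIF18A, NEK2, CDK1 and ANLN). Their share, 10.0%, was near the 8.58% of all genes tested. Other probe sets of MAD2L1, AURKB, BUB3, ECT2, NEK2, CDK1 and ANLN differed from these calls, as given below.

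**Figure D3:**
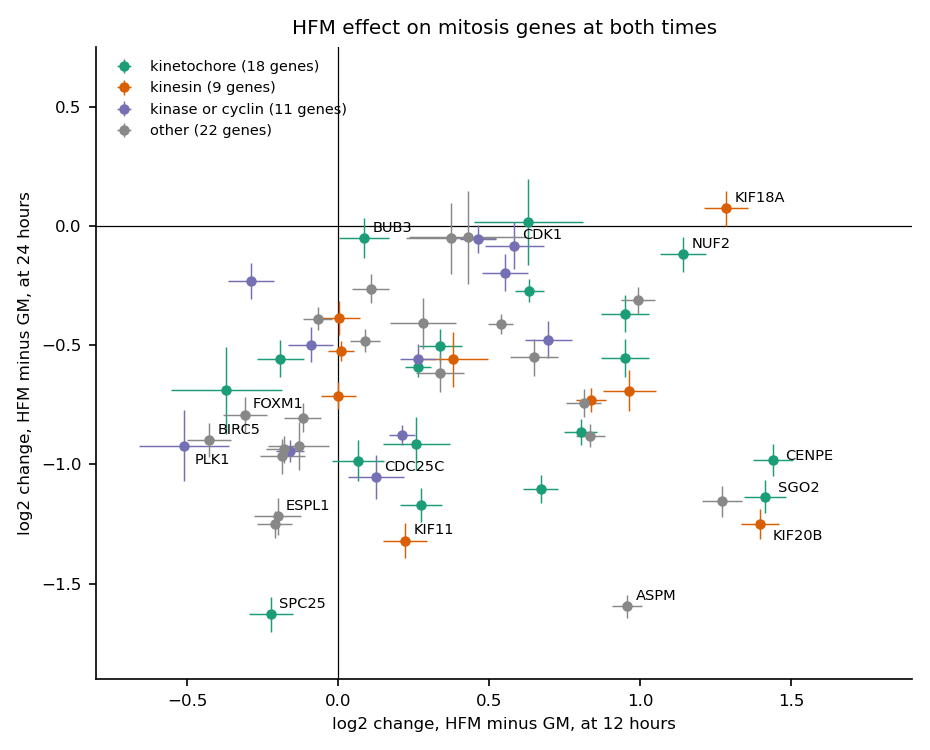
Log2 change of HFM minus GM at 24 hours (y axis) against the same change at 12 hours (x axis) for the 60 mitosis genes, coloured by class, with bars of 1 standard error (n = 3 arrays per group). Nearly all points lie below 0 on the y axis, and they spread along the x axis from -0.51 (PLK1) to 1.44 (CENPE).

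The difference of the HFM effect between the times was tested directly as an interaction in the same model. It was lower at 24 than at 12 hours for 53 of the 60 mitosis genes, higher for none and not called for 7, while 33.4% of all genes tested were lower and 19.4% higher. The median difference was -0.92, against -0.04 over all genes tested, and 27 members were lower by at least 2-fold and none higher, against 6.71% and 1.25% of all genes tested. KIF20B (-2.65 ± 0.09, limma adjusted p = 4.8e-09) had the largest difference, followed by SGO2 (-2.55 ± 0.10), ASPM (-2.55 ± 0.07), HMMR (-2.43 ± 0.09) and CENPE (-2.42 ± 0.10). The 7 genes not called, by their chosen probe sets, were CENPK, BUB3, MAD2L1, PLK1, CDC25B, ECT2 and ANLN. Other probe sets of MAD2L1 (-1.30 and -1.12), ECT2 (-1.22), ANLN (-1.12) and BUB3 (-0.87, -0.47, -0.33 and -0.21) were called lower. A further BUB3 probe set was not called (-0.07). Without the first HFM array at 12 hours 58 of the 60 were lower, all but PLK1 and CDC25B. After centring 51 were lower and 1, CDC25B (0.26), was higher, with 5068 higher and 3134 lower over all genes tested, against 2551 and 4380 before it.

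The change with time was then taken within each medium. In GM, 41 of the 60 genes were higher at 24 than at 12 hours and 5 were lower, with a median of 0.62, while 29.4% of all genes tested were higher, 40.5% lower and their median was -0.12. At least 2-fold higher were 18 members and 2-fold lower none, against 3.85% and 0.419% of all genes tested. CENPE had 8.35, 8.40 and 8.30 on GM arrays at 24 hours, against 5.97, 6.08 and 6.18 at 12 hours as given above, the largest rise with time (2.27 ± 0.07, limma adjusted p = 1.3e-09). SGO2, HMMR, KIF20B, KIF18A and ASPM rose by 2.14, 2.10, 1.97, 1.85 and 1.81 in GM. The 5 genes that were lower at 24 hours in GM were SPC24 (-0.71), ESPL1 (-0.46), AURKB (-0.27), BIRC5 (-0.23) and NCAPH (-0.14). The hybridisation controls averaged 9.84 to 9.88 on the GM arrays at 12 hours and 9.41 to 9.61 on those at 24 hours. Time and control class therefore cannot be told apart within GM. The hybridisation-class term rests on the first HFM array at 12 hours in this comparison too.

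In HFM, 38 genes were lower at 24 than at 12 hours and 5 were higher, with a median of -0.38, while 43.1% of all genes tested were lower, 20.1% higher and their median was -0.12. At least 2-fold lower were 5 members and 2-fold higher none, against 5.3% and 2.35% of all genes tested. ESPL1 had the largest fall with time in HFM (-1.47 ± 0.08, limma adjusted p = 2.2e-08), followed by SPC25 (-1.44 ± 0.07), SPC24 (-1.08 ± 0.08), CDC25C (-1.06 ± 0.09) and CDCA8 (-1.03 ± 0.06). Without the first HFM array at 12 hours 41 were lower and 4 higher. The ACTB 3′ minus 5′ difference was 1.58 ± 0.06 on HFM arrays at 24 hours and 0.838 ± 0.128 at 12 hours, and that of GAPDH 0.271 ± 0.027 at 24 hours and 0.152 ± 0.0037 at 12 hours (SD, n = 3 each), and their part in this comparison was not tested. The 5 that were higher were ECT2 (0.77), KIF18A (0.63), NEK2 (0.38), NUF2 (0.25) and BUB3 (0.20). BUB3 was barely called (limma adjusted p = 0.0499) and lost the call when any 1 of 10 of the 12 arrays was left out, with no filter and with only the compared groups. Centring the arrays moved the median of all genes by 0.22 in this comparison and left 30 members lower and 16 higher, with 5133 higher and 3790 lower over all genes tested, against 2637 and 5653 before it, so the direction of the smaller HFM changes with time depends on the scaling. Without the second or the third HFM array at 12 hours 8 or 10 members were higher.

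The order of the 4 group means adds to this. GM at 24 hours had the highest mean of the 4 groups in 45 of the 60 genes, where 16.2% of all genes tested had that order. The lowest was HFM at 24 hours in 29, 48.3% against 44.4% of all genes tested, and GM at 12 hours in 31, 51.7% against 26.9%. HFM at 12 hours lay between GM at 12 hours and a higher GM at 24 hours in 41 genes, 68.3% against 21.1% of all genes tested. The 12-hour contrast of the media and the time contrast of GM share the GM arrays at 12 hours, and the 24-hour contrast and the time contrast of HFM share the HFM arrays at 24 hours, so their values are given side by side without an overlap. For KIF20B the change was 1.40 for HFM over GM at 12 hours and 1.97 for 24 over 12 hours in GM, for NDC80 0.67 and 1.13, for CDC25C 0.13 and 0.12, and for BIRC5 -0.43 and -0.23.

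**Figure D4:**
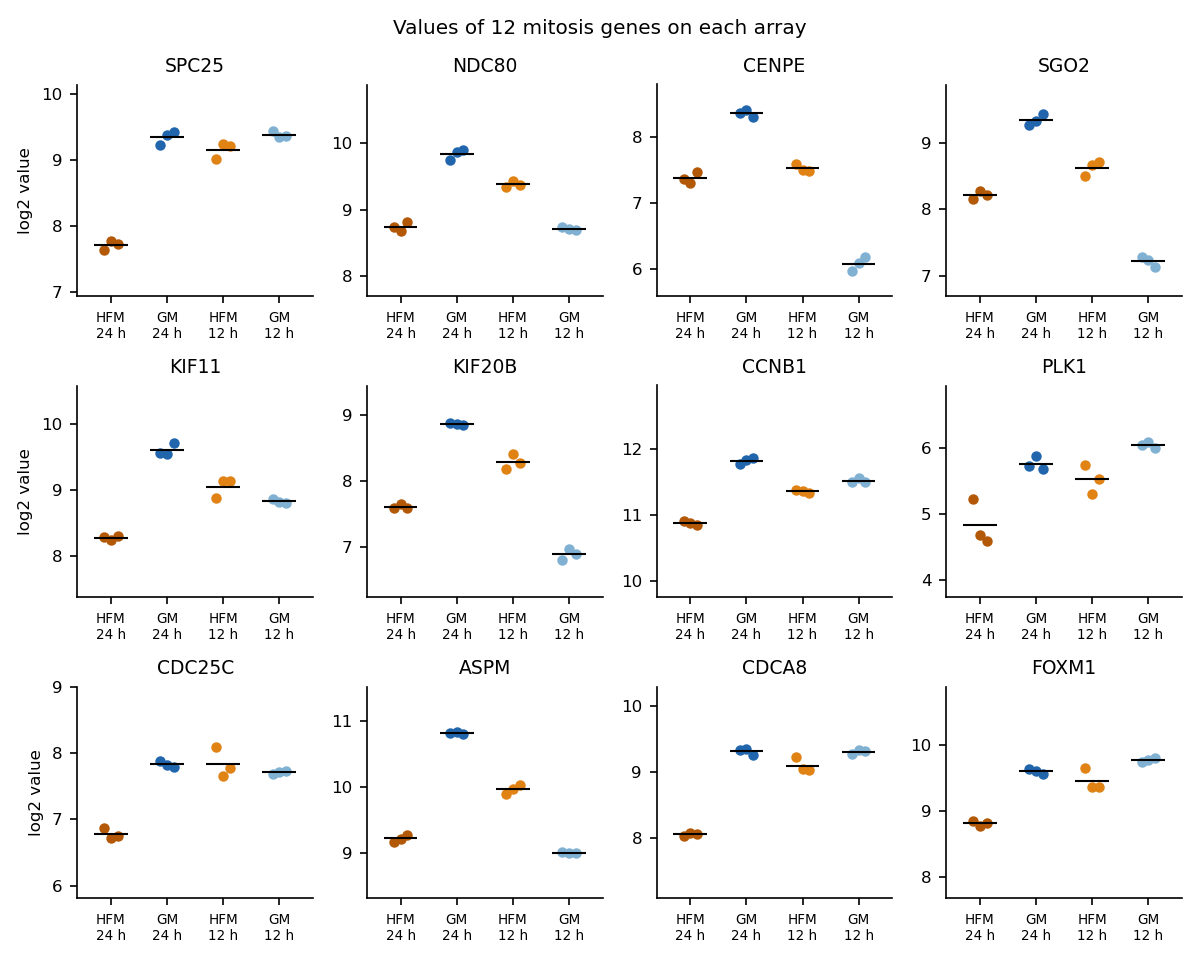
Log2 values (y axis, each panel spanning the same 3.2 log2 units) of 12 mitosis genes on each array (points) with the group mean (line), for HFM 24 h, GM 24 h, HFM 12 h and GM 12 h (x axis). CENPE, SGO2, KIF20B and ASPM are lowest in GM at 12 hours, while SPC25, CCNB1, PLK1, CDC25C, CDCA8 and FOXM1 are lowest in HFM at 24 hours.

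The 12-hour changes were set beside the genomic span of each gene, start to end in the RefSeq gene table, which the choice of members did not use. Across the 60 genes the 12-hour change and the genomic span had a Spearman correlation of 0.597, against 0.320 over 13114 genes tested with a span. This is a description across genes, which share the same 6 arrays and are not independent replicates. The 34 members that were higher at 12 hours had a median span of 44.3 kb, the 11 that were lower 17.2 kb and the 15 not called 26.3 kb. Over all genes tested the medians were 51.4, 16.7 and 26.4 kb in the same classes. CENPE spans 92.5 kb and SGO2 57.95 kb, whereas PLK1 spans 11.5 kb, BIRC5 11.4 kb and CDC20 4.22 kb. KIF4A, the longest member at 131 kb, was not called, and CDK1, at 16.5 kb, was higher. Without the first HFM array at 12 hours the correlation was 0.614 among the members and 0.320 over all genes tested. For 24 against 12 hours in GM, which shares the GM arrays at 12 hours, it was 0.593 among the members and 0.337 over all genes tested. For 24 against 12 hours in HFM it was 0.135 and 0.112, and for HFM against GM at 24 hours -0.110 and 0.0484.

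**Figure D5:**
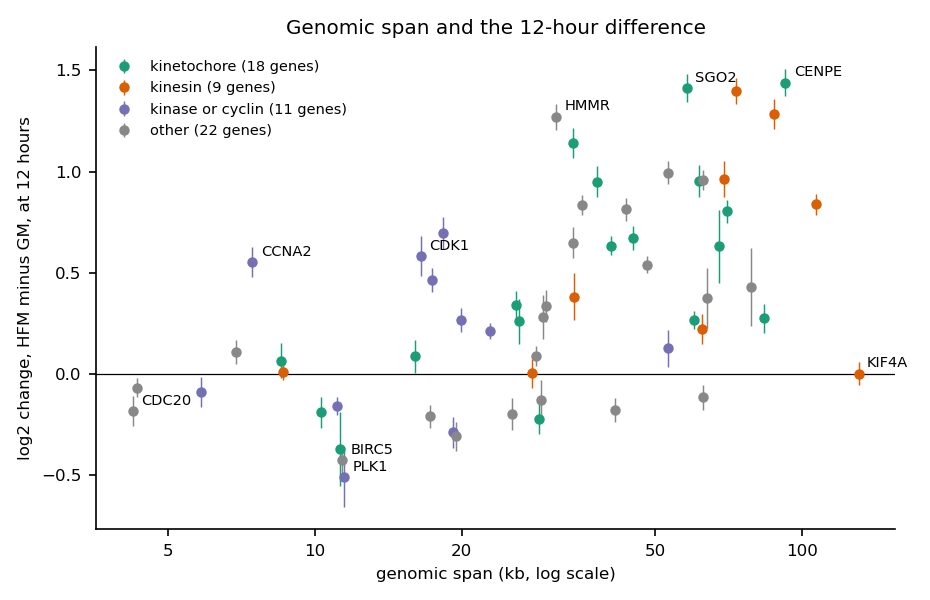
Log2 change of HFM minus GM at 12 hours (y axis, with 1 standard error, n = 3 arrays per group) against the genomic span of each of the 60 mitosis genes (x axis, kb, log scale), coloured by class. Long genes such as CENPE (92.5 kb, 1.44) lie high and short ones such as PLK1 (11.5 kb, -0.51) low, with KIF4A (131 kb, 0.00) as an exception.

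Different probe sets of the same gene mostly agreed in direction. The 60 genes have 125 probe sets, and 35 genes have several. Of 41 other probe sets that passed the floor for genes called at 24 hours, 32 were called in the same direction, 4 in the opposite one and 5 were not called. The opposite ones belonged to AURKB (0.67), KIF23 (2.12), SMC4 (0.61) and TOP2A (1.17). All 3 other probe sets of CDK1 were lower in HFM at 24 hours, at -0.60, -0.49 and -0.94, although the chosen one was at -0.08, and a second NEK2 probe set was at -0.85, where the chosen one was at -0.05. At 12 hours 30 of 40 other probe sets were called in the same direction and none in the opposite one. For 24 against 12 hours in HFM 25 of 37 were called in the same direction and 4 in the opposite one, among them a second NEK2 probe set (-0.47) and BUB3 probe sets at -0.62 and -0.71, against rises of the chosen ones, and a KIF23 probe set at 2.30, against a fall. In GM with time 38 of 48 were called in the same direction and none in the opposite one. For the difference of the HFM effect between times, 36 of 43 were called in the same direction and 2 in the opposite one. These 2 belonged to KIF23 (1.25) and TOP2A (0.76). Genes whose chosen probe set was not called are outside these counts. Other BUB3 probe sets were called higher at 12 hours (0.55, 0.51, 0.41 and 0.20). At 24 hours they were called higher (0.29 and 0.22), lower (-0.67) or not called. A second ECT2 probe set was called higher at 12 hours (0.81) and lower at 24 hours (-0.41). So was 1 other MAD2L1 probe set (0.76 and -0.54), while another was not called at 12 hours (-0.10) and lower at 24 hours (-1.22). A second ANLN probe set was called lower at 24 hours (-0.25).

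Other genes of cell division, from lists drawn up by function with earlier results of these data known, moved as follows at 24 hours. Of 27 other kinetochore genes 22 were lower and 1 higher, led by SKA3 (-1.72) and SKA1 (-1.46), which couple kinetochores to microtubules, and MAD2L1BP (-1.59), which silences the checkpoint. Of 23 other spindle and midzone genes 19 were lower and 1 higher, led by CKAP2L (-2.13), a spindle protein. Of 22 other mitotic kinase and cyclin genes 14 were lower and 5 higher, led by CCNF (-1.80), CDC25A (-1.59) and HASPIN (-1.52), the histone H3 kinase of mitosis. Of 16 genes of the anaphase-promoting complex 12 were lower and none higher, led by CDC27 (-0.75), and of 16 cohesin and other condensin genes 11 were lower and 1 higher, led by STAG1 (-0.89). These counts stand beside the 37.5% lower and 20.6% higher over all genes tested.

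DNA replication and S-phase genes had 37 of 38 lower at 24 hours and none higher, led by GINS3 (-2.04), FEN1 (-1.82) and MCM10 (-1.80), which act at the replication fork. The median difference of their HFM effect, 24 minus 12 hours, was -0.56. Of 18 DREAM, MuvB and E2F genes 12 were lower and 2 higher, led by E2F5 (-1.69), RBL1 (-1.65) and E2F2 (-1.61). Among 13 CDK inhibitor, growth-arrest and G1 cyclin genes 7 were higher and 5 lower. The growth-arrest genes GADD45B (1.55) and GADD45A (1.41) and the CDK inhibitor CDKN1C (1.04) were the highest of these 13. Over all genes tested 37.5% were lower and 20.6% higher at 24 hours, and the 5 of 13 lower were near that share.

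At 12 hours these lists had calls in both directions, beside 28.9% higher and 33.0% lower over all genes tested, and the counts of several lists were near those shares. The other kinetochore genes had 11 higher and 9 lower of 27, led by CENPC (1.18), CENPU (1.02) and KNTC1 (1.01). The other spindle and midzone genes had 12 higher and 6 lower of 23, and the other mitotic kinase and cyclin genes 11 higher and 8 lower of 22. Cohesin and other condensin genes had 9 higher and 3 lower of 16, led by the cohesin subunit SMC3 (1.22) and the cohesin loader NIPBL (0.92). DNA replication genes had 8 higher and 14 lower of 38, with CDT1, the licensing factor, at -1.11. The anaphase-promoting complex genes had 4 higher and 5 lower of 16, and the DREAM, MuvB and E2F genes 4 higher and 5 lower of 18. The CDK inhibitor, growth-arrest and G1 cyclin genes had 6 higher and 5 lower of 13, with CDK6 at 0.54 and cyclin D1, CCND1, at -0.53. Without the first HFM array at 12 hours the DNA replication genes had 12 higher and 20 lower, the anaphase-promoting complex genes 5 higher and 8 lower, and the DREAM, MuvB and E2F genes 9 higher and 5 lower, and the other lists changed by at most 2 calls in either direction.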

How the data were processed

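The authors deposited 1 log2 value per array for each of 54675 probe sets. According to the submitters' processing notes these are GCRMA values, that is, background-corrected, normalised and summarised over probes. No version or filter was given with them. A single symbol was annotated for 41097 probe sets, several for 1801 and none for 11777, and the last 2 kinds were not used as genes.

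From these values each of 13130 genes was fitted by limma 3.58.1 (R 4.3.3) with its lmFit and eBayes steps, using a mean for each of 4 groups over 12 arrays, and the scripts were tested on simulated data. HFM was compared with GM at 24 and 12 hours, 24 with 12 hours in each medium, and the HFM effect between times. A gene was called when its p, adjusted by Benjamini-Hochberg over all genes tested, was under 0.05. Changes are given with standard errors, and the number of arrays limits the precision. Array values in full were given for the 2 largest 24-hour changes of each class, the 2 largest rises and falls at 12 hours, the largest change in each time contrast and 10 genes whatever their values, with HMMR added for its promoter. From each other list up to 3 called genes could be named. The members and lists were chosen with earlier results of these data known. Alternatives were other filters, probe set choices, scalings, fits and the omission of each array.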

Additional observations from a re-analysis of the deposited data

Results flagged for a closer look

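The HFM effect differed between the times, by limma's test of the difference itself, for 53 of the 60 mitosis genes, all with a lower effect at 24 than at 12 hours. Of the 21 genes named by rule 19 were in this count, as was HMMR (-2.43), which was added for its promoter. The differences of the 19, HFM effect at 24 minus HFM effect at 12 hours on the log2 scale, were over 2 units for KIF20B (-2.65), SGO2 (-2.55), ASPM (-2.55) and CENPE (-2.42). They lay between 1 and 2 units for NDC80 (-1.77), KIF11 (-1.54), CENPI (-1.44), SPC25 (-1.41), CDC25C (-1.18), CENPA (-1.05), CDCA8 (-1.04) and ESPL1 (-1.02). They were under 1 unit for MKI67 (-0.95), CCNB1 (-0.78), TOP2A (-0.69), CDK1 (-0.67), FOXM1 (-0.48), BIRC5 (-0.47) and AURKB (-0.41). For CDK1 the 12-hour change was called and the 24-hour change was not, and for CDC25C, CENPA and AURKB it was the other way round.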

How the results depend on the processing

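The counts of members kept their size under most settings. Higher at 24 hours rose to 1 member with the mean of all probe sets and with centred arrays. It was also 1 without x_at and s_at probe sets (by the ending of their names), which leaves 47 members. Lower at 12 hours was 5 without x_at and s_at probe sets, 6 with only the compared groups and 4 with the hybridisation-class term. Lower in GM with time was 3, 8 and 2 under the same 3 settings. The count of higher differences between times was 1 without x_at and s_at probe sets and 1 after centring, and higher in HFM with time was 16 after centring. A 2-fold minimum left 11 lower at 24 hours, 6 higher and 0 lower at 12 hours, 0 higher and 5 lower in HFM with time, 18 higher and 0 lower in GM with time, and 27 lower differences between times.

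Leaving out 1 array at a time gave 0 higher and 50 to 52 lower at 24 hours, 30 to 36 higher and 7 to 14 lower at 12 hours, 4 to 10 higher and 37 to 41 lower in HFM with time, 40 to 43 higher and 3 to 6 lower in GM with time, and 53 to 58 lower differences between times. Lower at 12 hours was 7 without GM replicate 1, GM replicate 3 or HFM replicate 3 at 12 hours. Lower in GM with time was 3 without replicate 3 at 12 or at 24 hours, and higher in HFM with time was 8 or 10 without replicate 2 or 3 at 12 hours.

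Among the 21 genes named by rule, 2154 of 2259 values stayed called in the same direction or stayed not called. Another 34 became called, 61 lost the call and 10 reversed. A reversal here is a change of sign with a call in at least 1 of the fits. Changes of sign without a call are thus not among the 10, such as CDK1 (0.10) and BUB3 (0.13) at 24 hours after centring. With the mean of all probe sets AURKB (0.086) and TOP2A (0.14) reversed at 24 hours, BUB3 (-0.082) and CDK1 (-0.38) in HFM with time, and AURKB (0.029) between times. Without x_at and s_at probe sets BUB3 reversed in HFM (-0.71) and GM (-0.24) with time. With the hybridisation-class term TOP2A reversed at 12 hours (-0.035), and AURKB (0.021) and BIRC5 (0.056) in GM with time. Other probe sets of AURKB and TOP2A that opposed the chosen one enter the mean. The cause of the other reversals was not tested.

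With the replicate number as a block, 52 members were lower at 24 hours, 34 higher and 12 lower at 12 hours, 38 lower and 5 higher in HFM with time, 41 higher and 5 lower in GM with time, and 54 lower between times. Deviations of same-numbered arrays correlated at -0.167 to 0.420 over 18 pairs, and those of other arrays at -0.492 to 0.441 over 36. These ranges overlap, and whether the numbers mark a shared culture or run cannot be told from them.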
